A study of Mus musculus with 14 samples.

Results

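Hedgehog signalling in the early limb bud was described through 9 genes: the ligand Shh, its inhibitory receptor Ptch1, the membrane decoy Hhip, the co-receptors Cdon, Boc and Gas1, and the transcription factors Gli1, Gli2 and Gli3. They were taken by name from a table of read counts for 24454 mouse genes, and all 9 were found and tested. The counts came from RNA-seq of 14 libraries of sorted forelimb bud cells, made from pools of limb buds of embryos carrying the Sox9 IRES-EGFP reporter allele, which all groups shared. Cells were alive by 7AAD and negative for CD31, Ter119, CD45, EpCam, Gr1 and CD11b. At E10.5, 4 populations were sorted: S9-JAG1+ limb mesenchymal progenitors (Sox9 reporter negative, JAG1 positive; 3 libraries), S9-Pαhi progenitors (negative for the reporter, JAG1 and SCA-1, with high PDGFRα; 3 libraries), S9+Pαhi osteo-chondrogenic progenitors (OCPs; 3 libraries) and S9-SCA-1+ cells (2 libraries). Chondroblasts (CBs) came from E11.5 as reporter-positive, PDGFRα-high cells said to be positive for Col2a1 (3 libraries), and the gate listed for them is the one listed for OCPs, so the comparison of CBs with OCPs is also one between stages. Each library pools many embryos, and a level stands for all cells in its gate.

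In the limb bud, SHH is made by a small group of posterior mesenchymal cells, the polarizing region, and spreads across the mesenchyme. PTCH1 holds the transducer SMO inactive until a Hedgehog ligand binds it, and CDON, BOC and GAS1 help the ligand to bind. HHIP binds the ligand without passing the signal on. Inside the cell, GLI2 and GLI3 are turned into activators or cut into repressors, with GLI3 the main repressor of the limb bud, and GLI1 acts as an activator only. Ptch1, Hhip and Gli1 are known as transcriptional targets of the pathway, and the levels of Ptch1 and Gli1 are often read as its output. The study describes Gli1 and Ptch1 as activated by SHH. It counts Hhip, with Cdon, Boc and Gli2, among direct targets that SHH lowers. The study asked which progenitors of the limb bud depend on this signal.

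Levels are in CPM, counts normalized to library totals that were scaled by trimmed means, and levels of different genes are compared only as RPKM, which divides CPM by the gene length in kilobases. A gene was called between populations when its Benjamini-Hochberg adjusted p in edgeR's quasi-likelihood test was at most 0.1 and its log2 fold change at least 1.2 in either direction, which is 2.3-fold. Library totals ran from 20316583 to 29162751 counts, and 3 counts, the limit below which a gene was taken as not detectable, were worth 0.101 to 0.149 CPM. The sort was checked with marker genes. The antigen gene Jag1 stood at 228 to 364 CPM in S9-JAG1+ cells, at 102 to 137 in CBs and at no more than 21.3 in the other populations, and Ly6a, which encodes SCA-1, at 3.10 to 3.36 CPM in the SCA-1+ sort and at no more than 0.406 elsewhere. Of the chondrogenic genes, 5 (Sox9, Col2a1, Acan, Col9a1, Matn1) summed to 1330 to 1880 CPM in OCPs, 1980 to 2990 in CBs and 111 to 222 elsewhere. The S9-SCA-1+ libraries stood apart: 5 myoblast genes (Pax3, Lbx1, Met, Myf5, Myod1) summed to 1490 CPM there and to 1.93 to 10.4 in the other populations, while 4 limb mesenchyme genes (Prrx1, Tbx5, Pdgfra, Twist1) summed to 318 to 416 CPM against 1220 to 2900. Red blood cell genes summed to 71.1 and 1880 CPM in these 2 libraries and to at most 48.1 elsewhere, and 4 endothelial genes to 10.7 and 15 against at most 9.93. Of the endothelial genes, Kdr alone was above all other populations, at 6.09 to 10.9 CPM against at most 1.99. Pecam1, Cdh5 and Tek had lower means there than in S9-Pαhi cells. Neural crest and glia genes summed to 9.41 to 21 CPM in OCPs, 20.0 to 28.2 in CBs and at most 7.69 elsewhere, with Sox10 at 1.87 to 3.99 in OCPs and at most 0.113 in both progenitor populations. Limb ectoderm genes summed to 6.28 to 22.4 CPM in every library and leukocyte genes to at most 0.641. The part of these cells in the results was not tested. In bulk libraries, fewer cells of a type and less RNA per cell cannot be told apart.

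All 9 genes were placed on GRCm38. Shh lies at chr5:28456840-28467101 on the minus strand, Ptch1 at chr13:63508328-63573460 (minus) and Hhip at chr8:79965850-80058060 (minus). Cdon lies at chr9:35421528-35507652 (plus), Boc at chr16:44485045-44558870 (minus) and Gas1 at chr13:60174405-60177535 (minus). Gli1 lies at chr10:127329882-127341579 (minus), Gli2 at chr1:118834061-119054405 (minus) and Gli3 at chr13:15463723-15730026 (plus). Reads were counted over exons, and whether strand was used is not given in the sources used here. In GENCODE transcripts paired with RefSeq mRNAs, antisense exons cover 28.3% of the Shh exon bases, 16.8% of those of Gas1, 8.06% of Gli1 and 1.93% of Hhip. Reads of those antisense genes could thus be counted with them. The Gas1 exons used here hold 1155 bases against a deposited length of 3131, so counted sequence outside them was not checked.

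Ptch1 and Hhip are shown by their promoters because both encode ligand-binding inhibitors and both are known targets. The study places Ptch1 among the genes activated by SHH and Hhip among those lowered by it. Their levels ran in different orders over the populations. The windows hold 250 bases before and 50 after a transcript start in RefSeq (GRCm38.p6), and 6 of the 9 members had one. Capitals mark CCACCC, the inner letters of the GLI site GACCACCCA, in the printed direction; both motifs were searched on both strands, and each GACCACCCA holds a CCACCC. The Hhip window is chr8:80057959-80058258 and the Ptch1 window, which lies within the gene at the start of a shorter transcript, is chr13:63565686-63565985, both on the minus strand.
Hhip: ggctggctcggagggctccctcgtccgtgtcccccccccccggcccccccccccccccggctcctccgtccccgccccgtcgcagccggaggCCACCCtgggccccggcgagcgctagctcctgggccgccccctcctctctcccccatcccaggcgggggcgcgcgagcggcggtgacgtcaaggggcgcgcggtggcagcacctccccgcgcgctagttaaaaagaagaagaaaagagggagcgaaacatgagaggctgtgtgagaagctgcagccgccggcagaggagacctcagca
Ptch1: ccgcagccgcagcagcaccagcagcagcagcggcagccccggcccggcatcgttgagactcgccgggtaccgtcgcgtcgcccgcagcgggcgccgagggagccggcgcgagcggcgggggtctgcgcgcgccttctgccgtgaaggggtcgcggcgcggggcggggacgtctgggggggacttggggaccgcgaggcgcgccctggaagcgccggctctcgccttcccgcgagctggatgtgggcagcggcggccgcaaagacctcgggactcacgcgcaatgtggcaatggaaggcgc
The whole site was in none of the 6 windows and in 0.253% of 32851 promoters of the same length. The short motif was in the windows of Hhip (1 match), Gli2 (2 matches) and Gli3 (1 match) and in 31.5% of all promoters. It was in neither strand of the Ptch1, Cdon and Gas1 windows. The Ptch1 and Hhip windows were 76.3% and 73.7% G or C, against a median of 52.7% over all promoters, and the Cdon window, which lies within the gene (chr9:35451826-35452125), was 44.7%.

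Of the 9 genes, 7 were called among the 5 populations, against 29.04% of the 15125 genes tested. The exceptions were Gas1, whose largest log2 difference between populations was 0.91, and Gli3, with 0.49. With both S9-SCA-1+ libraries left out of the fit, a choice made after seeing their myoblast genes, 6 of 9 were called. The share of all genes called in that fit was not determined, so this count has no background beside it.

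**Figure D1:**
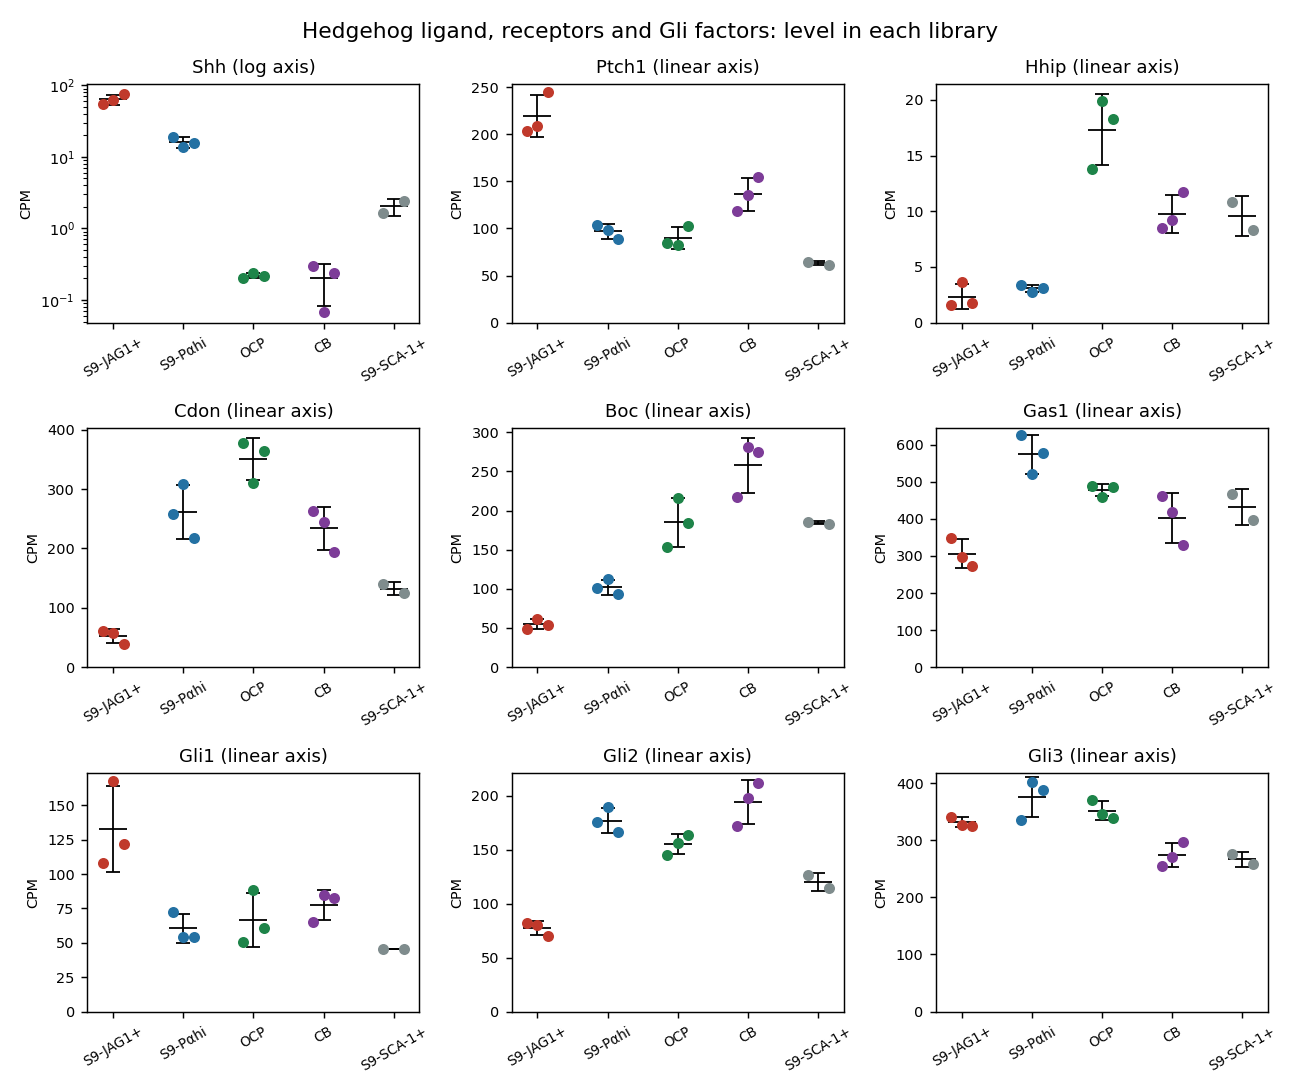
Level of each of the 9 genes in CPM (vertical axis; logarithmic for Shh, linear from 0 for the others) in 14 libraries of the 5 populations (horizontal axis); points are libraries and black bars the mean ± SD. Shh spans from 74.3 CPM in an S9-JAG1+ library to 0.0684 in a CB library, while every library has at least 255 CPM of Gli3.

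Shh was found almost wholly in the Sox9 reporter-negative populations. In S9-JAG1+ cells its level was 54.2, 62.4 and 74.3 CPM, and in S9-Pαhi cells 19.0, 13.7 and 15.5 CPM. In S9-SCA-1+ cells it was 1.64 and 2.42 CPM. In OCPs it was 0.203, 0.238 and 0.217 CPM, from 5, 5 and 6 reads, and in CBs 0.303, 0.0684 and 0.236 CPM, from 9, 2 and 6 reads. No S9-JAG1+ library overlapped an S9-Pαhi library, and none of these an S9-SCA-1+ library, whereas OCPs and CBs overlapped and lay near the limit of 3 counts, 1 CB library below it. Shh was 3.96-fold higher in S9-JAG1+ than in S9-Pαhi cells (log2 1.99 ± 0.18 SE, edgeR adjusted p = 1.83e-06) and 71.9-fold lower in OCPs than in S9-Pαhi cells (log2 -6.17 ± 0.29, edgeR adjusted p = 2.42e-08). Between S9-SCA-1+ and S9-Pαhi cells it was 7.88-fold lower (log2 -2.98 ± 0.24, edgeR adjusted p = 3.27e-07). The order of levels was S9-JAG1+, S9-Pαhi, S9-SCA-1+, OCP and CB, and its last step, CB against OCP, did not pass (log2 -0.11 ± 0.53, edgeR adjusted p = 0.893; the sign turned to 0.29 without CB replicate 2). Genes of other embryonic Shh sources were checked in the same libraries. Foxa2 and Noto, of floor plate and notochord, had at most 3 counts in each library, while Cdx2, of the gut and tail bud, had 1.24 to 3.81 CPM in S9-JAG1+ cells and at most 0.113 elsewhere.

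Ptch1, the receptor that keeps SMO inactive, had its highest level in S9-JAG1+ cells as well, but with a range far narrower than that of the ligand. It measured 204, 209 and 245 CPM in S9-JAG1+ cells, 104, 97.9 and 88.9 in S9-Pαhi cells and 84.3, 82.0 and 103 in OCPs. CBs had 119, 136 and 154 CPM and S9-SCA-1+ cells 64.4 and 61.4. S9-Pαhi cells and OCPs overlapped, S9-JAG1+ cells lay above all others and S9-SCA-1+ cells below. The difference of S9-JAG1+ from S9-Pαhi cells was 2.26-fold (log2 1.176 ± 0.11), just under the limit of 1.2 with an edgeR adjusted p of 4.25e-06, and OCPs were 2.44-fold lower than S9-JAG1+ cells (log2 -1.29 ± 0.11, edgeR adjusted p = 7.90e-07), which was called. OCPs and S9-Pαhi cells, whose Shh levels lay 71.9-fold apart, differed in Ptch1 by log2 -0.11 ± 0.11 (edgeR adjusted p = 0.537). CBs, with Shh as low as in OCPs, had 1.52-fold more Ptch1 than OCPs (log2 0.60 ± 0.11, edgeR adjusted p = 0.00152), which passed the adjusted p but not the fold limit.

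Hhip, the decoy, ran in another order: OCPs had most and S9-JAG1+ cells least. Its level was 13.8, 19.9 and 18.3 CPM in OCPs, 8.48, 9.17 and 11.7 in CBs and 10.8 and 8.33 in S9-SCA-1+ cells. S9-Pαhi cells had 3.38, 2.75 and 3.09 CPM and S9-JAG1+ cells 1.58, 3.60 and 1.74. Both reporter-negative progenitor populations lay below the other 3 with no overlap, and overlapped each other. Hhip was 5.63-fold higher in OCPs than in S9-Pαhi cells (log2 2.49 ± 0.26, edgeR adjusted p = 2.24e-05) and 7.48-fold higher than in S9-JAG1+ cells (log2 2.90 ± 0.27, edgeR adjusted p = 1.04e-06). In S9-SCA-1+ cells it was 3.12-fold higher than in S9-Pαhi cells (log2 1.64 ± 0.28, edgeR adjusted p = 0.000476). S9-JAG1+ and S9-Pαhi cells, which differed in Shh and Ptch1, did not pass for Hhip (log2 -0.41 ± 0.28, edgeR adjusted p = 0.340), nor did CBs and S9-SCA-1+ cells (log2 difference 0.03, edgeR adjusted p = 0.938).

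The co-receptors Cdon and Boc, which are related immunoglobulin-family proteins, were both lowest in S9-JAG1+ cells. Cdon measured 60.8, 58.1 and 39.3 CPM there, 259, 308 and 218 in S9-Pαhi cells and 377, 310.3 and 364 in OCPs. It measured 263, 244 and 194 CPM in CBs and 139.8 and 125 in S9-SCA-1+ cells. S9-JAG1+ libraries lay below every other library, and the ranges of S9-Pαhi cells and CBs overlapped. Cdon was 4.97-fold lower in S9-JAG1+ than in S9-Pαhi cells (log2 -2.31 ± 0.17, edgeR adjusted p = 4.50e-07) and 6.65-fold higher in OCPs than in S9-JAG1+ cells (log2 2.73 ± 0.18, edgeR adjusted p = 4.14e-08). At the top of its order, OCP against S9-Pαhi (log2 0.42 ± 0.16, edgeR adjusted p = 0.107) and S9-Pαhi against CB (log2 difference 0.16, edgeR adjusted p = 0.435) did not pass.

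Boc differed from Cdon in its highest population, which was CBs. It measured 217.5, 281 and 275 CPM in CBs, 154, 216.4 and 185 in OCPs and 186 and 183 in S9-SCA-1+ cells. It measured 100.4, 112 and 93.4 CPM in S9-Pαhi cells and 48.8, 61.4 and 53.3 in S9-JAG1+ cells. The 2 lowest populations overlapped with no other, and OCPs and S9-SCA-1+ cells could not be separated (log2 difference 0.01, edgeR adjusted p = 0.983). Boc was called in 1 main comparison, 3.39-fold higher in OCPs than in S9-JAG1+ cells (log2 1.76 ± 0.13, edgeR adjusted p = 1.81e-07). From OCPs to CBs, Boc was 1.39-fold higher (log2 0.48 ± 0.13, edgeR adjusted p = 0.0145) and Cdon 1.5-fold lower (log2 -0.58 ± 0.16, edgeR adjusted p = 0.0181), both below the fold limit and each with the OCP and CB libraries apart. In S9-SCA-1+ against S9-Pαhi cells the pair again lay on opposite sides, Boc at log2 0.85 ± 0.14 (edgeR adjusted p = 0.000480) and Cdon at log2 -0.98 ± 0.19 (edgeR adjusted p = 0.00145).

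Gas1, a lipid-anchored surface protein unrelated to the other co-receptors, was the most even of the 3. Its level was 348, 298 and 272 CPM in S9-JAG1+ cells and 626, 521 and 577 in S9-Pαhi cells. OCPs had 489.5, 459.7 and 486 CPM, CBs 462, 418 and 329, and S9-SCA-1+ cells 466 and 397. It was 1.88-fold lower in S9-JAG1+ than in S9-Pαhi cells (log2 -0.91 ± 0.12, edgeR adjusted p = 0.000102), below the fold limit. Between neighbours in the order S9-Pαhi, OCP, S9-SCA-1+ and CB, no step passed (edgeR adjusted p = 0.173, 0.422 and 0.564), and only the step from CBs down to S9-JAG1+ cells did (log2 difference 0.40, edgeR adjusted p = 0.0126).

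Gli1, the factor that serves as a readout of the pathway, was highest in S9-JAG1+ cells, in the same direction as Shh and Ptch1. Its level was 108, 168 and 122 CPM in S9-JAG1+ cells, 72.8, 54.38 and 54.55 in S9-Pαhi cells and 50.8, 88.7 and 60.9 in OCPs. CBs had 65.0, 84.6 and 82.9 CPM and S9-SCA-1+ cells 45.4 and 45.6. Every S9-JAG1+ library lay above all others, and the remaining ranges overlapped except for the S9-SCA-1+ libraries, which were the lowest. The difference of S9-JAG1+ from S9-Pαhi cells was 2.19-fold (log2 1.13 ± 0.20, edgeR adjusted p = 0.00118), short of the fold limit. Below S9-JAG1+ cells no neighbouring step of the order CB, OCP, S9-Pαhi and S9-SCA-1+ passed (edgeR adjusted p = 0.464, 0.679 and 0.226). The value for OCPs against S9-Pαhi cells turned on 1 library: log2 0.14 ± 0.20 with all libraries and -0.13 (edgeR adjusted p = 0.770) without OCP replicate 2.

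Gli2, which carries much of the activator function of the pathway in other tissues, went the other way and was lowest in S9-JAG1+ cells. It measured 81.8, 80.6 and 70.1 CPM there, 176, 189 and 166 in S9-Pαhi cells and 145, 157 and 163 in OCPs. CBs had 172, 198 and 212 CPM and S9-SCA-1+ cells 126 and 115. No S9-JAG1+ library reached any other, and S9-SCA-1+ cells lay between them and the rest. Gli2 was 2.28-fold lower in S9-JAG1+ than in S9-Pαhi cells (log2 -1.19 ± 0.10, edgeR adjusted p = 6.81e-07), again just under the fold limit.

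Gli3, the main source of GLI repressor in the limb bud, was nearly level. Its level was 342, 327 and 326 CPM in S9-JAG1+ cells, 335, 402 and 389 in S9-Pαhi cells and 371, 346 and 339 in OCPs. CBs had 255, 271 and 298 CPM and S9-SCA-1+ cells 276 and 258. The 3 populations at the top overlapped, and CBs and S9-SCA-1+ cells lay below them with no overlap. S9-JAG1+ and S9-Pαhi cells did not pass (log2 -0.18 ± 0.08, edgeR adjusted p = 0.153), whereas CBs were 1.28-fold lower than OCPs (log2 -0.36 ± 0.08, edgeR adjusted p = 0.00643). Counts of RNA do not tell full-length GLI3 from its cut repressor form.

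Read by comparison, the members fell into few large and several moderate differences. Of 9 members, 2 were called in S9-JAG1+ against S9-Pαhi cells, with 6.98% of all genes called: Shh, which was higher, and Cdon, which was lower. With the adjusted p alone, 7 of 9 passed against 28.07% of all genes, Hhip and Gli3 being the exceptions. Because Ptch1, Gli1 and Gli2 lay so near the limit, the count of 2 was 4 without S9-Pαhi replicate 1, 5 without S9-JAG1+ replicate 1 and 4 without S9-JAG1+ replicate 2. In OCPs against S9-Pαhi cells, which uses the same S9-Pαhi libraries, 2 of 9 were called, Shh lower and Hhip higher, against 4.82% of all genes, and 3 passed the adjusted p alone, against 20.08%. In S9-SCA-1+ against S9-Pαhi cells, again with the same S9-Pαhi libraries, the 2 called members were also Shh (lower) and Hhip (higher), against 10.47%, and 8 of 9 passed the adjusted p alone, against 30.39%.

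Of the 5 comparisons, OCPs against S9-JAG1+ cells had most members called, 5 of 9 against 12.49% of all genes: Shh and Ptch1 were lower in OCPs, and Hhip, Cdon and Boc higher. With the adjusted p alone 8 of 9 passed, against 47.6% of all genes, and the ninth was Gli3 (log2 0.09 ± 0.08, edgeR adjusted p = 0.446). Both populations came from the same stage. In CBs against OCPs 0 of 9 were called by edgeR and 0 by DESeq2, against 7.76% of all genes in edgeR, while 6 had an unadjusted p under 0.05 in edgeR and the same number passed the adjusted p alone, against 34.78%. Those 6 were Ptch1, Boc and Gli2, higher in CBs, and Hhip, Cdon and Gli3, lower.

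**Figure D2:**
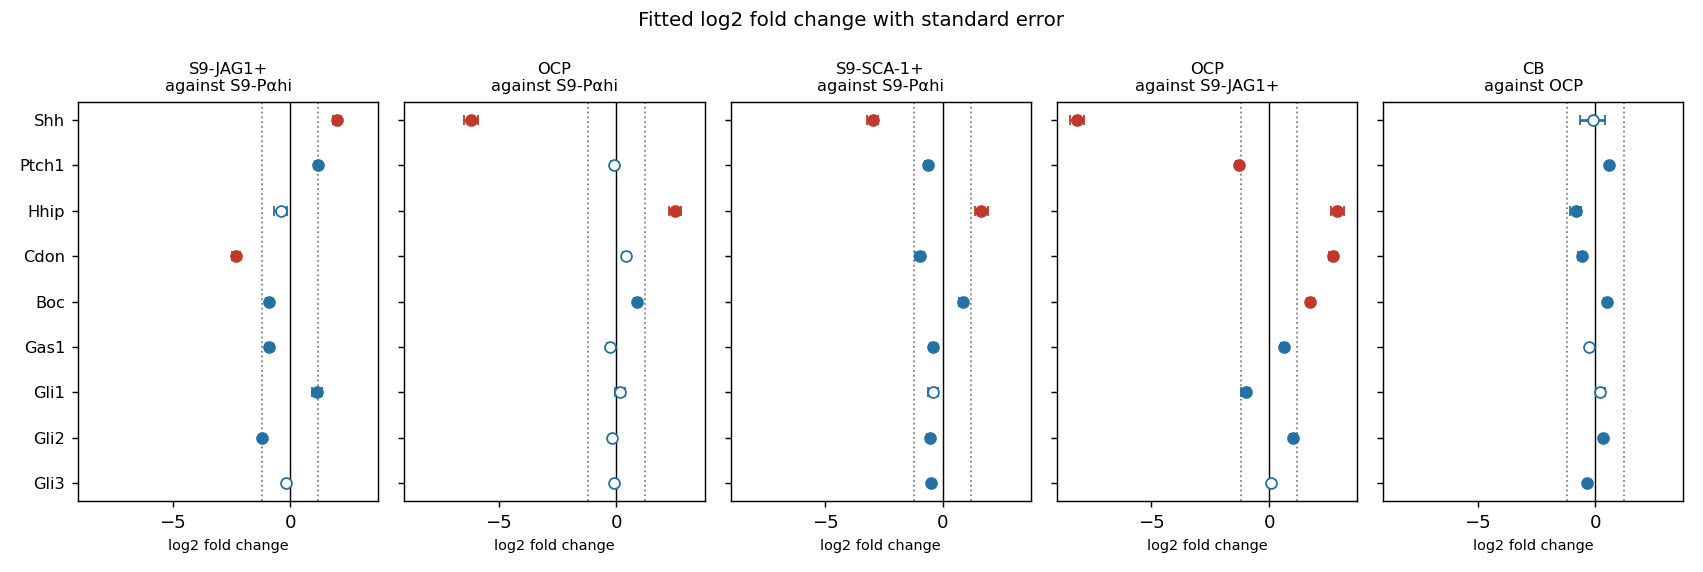
Fitted log2 fold change (horizontal axis) with its standard error for the 9 members (rows) in 5 comparisons (panels); dotted lines mark the limit of 1.2, red points were called, filled blue points passed the adjusted p alone and open points did not. In S9-JAG1+ against S9-Pαhi cells Ptch1 (1.176) and Gli2 (-1.191) lie at the dotted lines, and in CBs against OCPs no point lies outside them.

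The balance of ligand-helping and ligand-limiting receptors was described by setting the summed RPKM of Cdon, Boc and Gas1 against that of Ptch1 and Hhip in each library. The co-receptors summed to 117 ± 13.1 RPKM (SD, n = 3) in S9-JAG1+ cells and to 243 ± 13.5 in S9-Pαhi cells, and the inhibitors to 51.2 ± 5.13 and 22.9 ± 1.80 RPKM. The ratio was 2.32 ± 0.46 in S9-JAG1+ cells, 10.6 ± 0.53 in S9-Pαhi cells, 10.8 ± 1.06 in OCPs, 6.83 ± 1.48 in CBs and 12.6 ± 0.56 (n = 2) in S9-SCA-1+ cells. The libraries of S9-JAG1+ cells, 1.83 to 2.75, lay below those of CBs, 5.23 to 8.16, and these below all the others, of which the lowest was an OCP library at 9.56. As a log2 ratio the balance was 1.197 ± 0.30, 3.41 ± 0.07, 3.42 ± 0.15, 2.75 ± 0.33 and 3.66 ± 0.06 in the same order of populations.

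Single genes carried much of these sums. Gas1 made up 83.2% ± 1.93 of the co-receptor RPKM in S9-JAG1+ cells and 58.4% ± 4.59 in CBs, where Boc reached 26.8% ± 5.47. Hhip made up 0.505% ± 0.265 of the inhibitor RPKM in S9-JAG1+ cells, 1.48% ± 0.157 in S9-Pαhi cells and 8.43% ± 1.66 in OCPs, so the inhibitor sum was largely Ptch1. Without Ptch1, the mean log2 ratio of S9-JAG1+ cells, 8.946, was no longer the lowest and exceeded that of OCPs, 7.012. Without Gas1 it was -1.384 in S9-JAG1+ cells and 1.369 to 1.996 in the other populations, so there the inhibitors exceeded Cdon and Boc. The lengths matter for such ratios. The deposited length was 4305 bases for Ptch1 and 3131 for Gas1. The longest GENCODE transcripts paired with a RefSeq mRNA have 7725 and 1155 bases. For Gas1 that model is much shorter than the deposited length, so using it raises the Gas1 RPKM. The levels are of RNA and say nothing of protein at the cell surface.

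**Figure D3:**
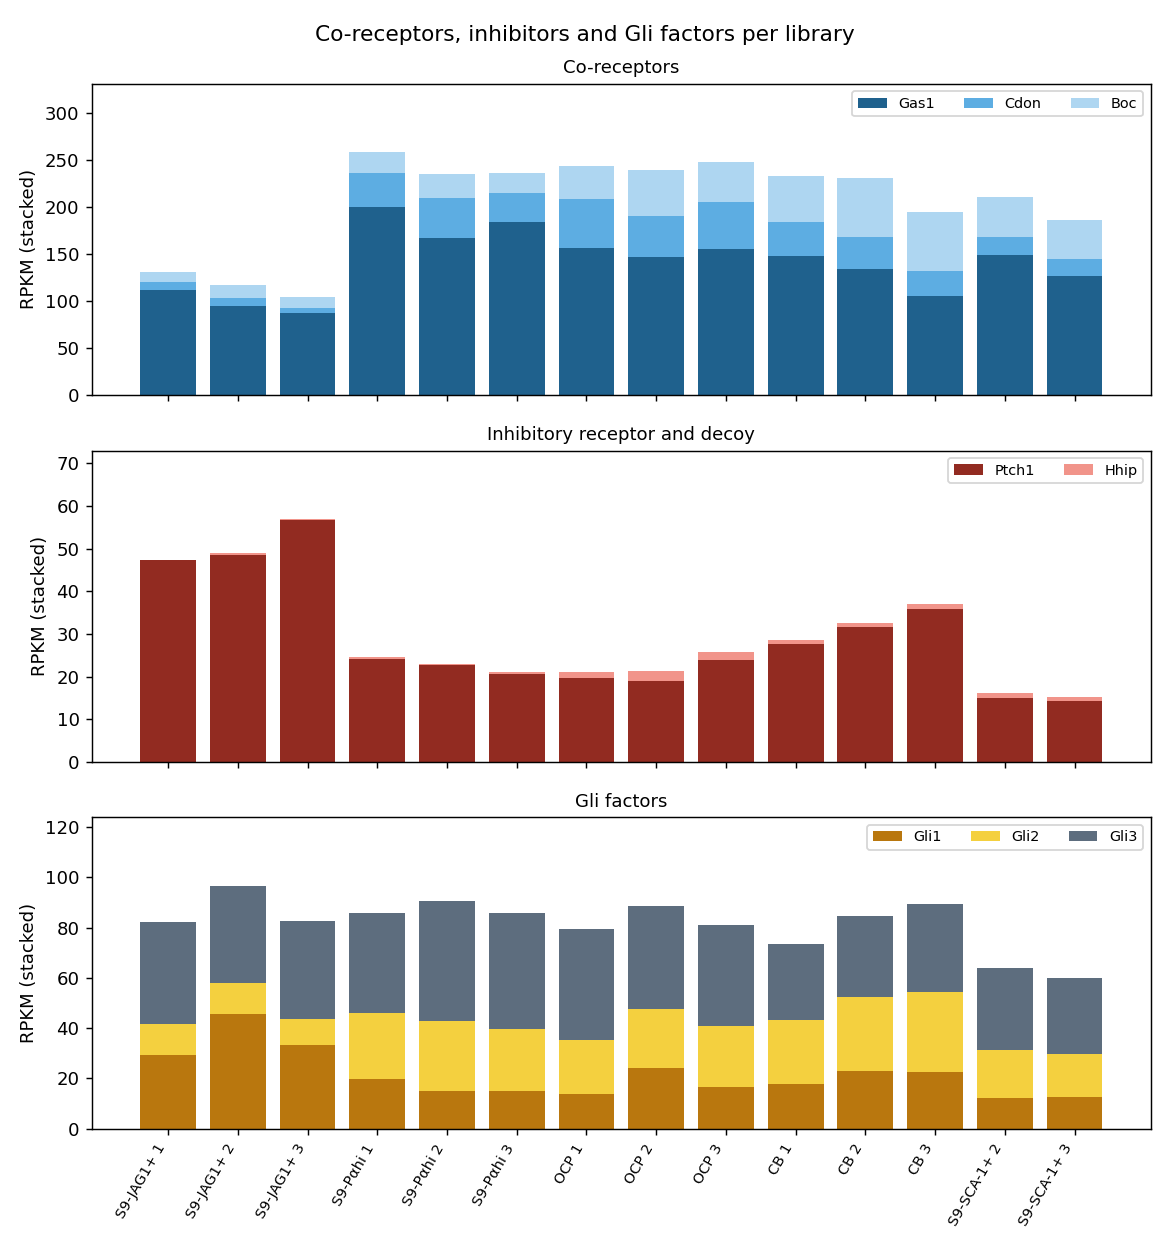
Stacked RPKM (vertical axes, from 0) of the co-receptors Gas1, Cdon and Boc (top), of Ptch1 and Hhip (middle) and of the Gli genes (bottom) in each of 14 libraries. The S9-JAG1+ libraries have the lowest co-receptor sums, 105 to 131 RPKM, and the highest inhibitor sums, 47.5 to 57.0 RPKM, while their Gli sums lie between 82.2 and 96.7 RPKM.

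Among the Gli genes the sum changed less than its make-up. It was 87.1 ± 8.28 RPKM in S9-JAG1+ cells, 87.5 ± 2.82 in S9-Pαhi cells, 83.1 ± 4.83 in OCPs, 82.6 ± 8.13 in CBs and 62.1 ± 2.73 in S9-SCA-1+ cells. Gli1 made up 41.2% ± 5.80 of it in S9-JAG1+ cells, 19.0% ± 3.66 in S9-Pαhi cells, 21.8% ± 5.07 in OCPs, 25.6% ± 1.60 in CBs and 20.1% ± 0.951 in S9-SCA-1+ cells. The lowest S9-JAG1+ library, 35.8%, lay above the highest of all others, 27.4%. Gli2 took 13.3% ± 1.33 in S9-JAG1+ cells and 35.0% ± 0.276 in CBs, and Gli3 between 39.5% ± 1.60 in CBs and 51.0% ± 0.225 in S9-SCA-1+ cells. The log2 ratio of Gli1 to Gli3 was -0.15 ± 0.35 in S9-JAG1+ cells and -1.44 ± 0.38 in S9-Pαhi cells.

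Of 27 other components of the pathway, 26 were tested. Their counts in each comparison are given below, beside the share of all genes called. The secreted SCUBE proteins aid release of the lipid-bearing ligand. Scube3 was 3.89-fold lower in S9-JAG1+ than in S9-Pαhi cells (log2 -1.96 ± 0.16, edgeR adjusted p = 1.06e-06), at 23.3 to 40.1 against 109.5 to 138 CPM. Scube1 was 2.38-fold lower in CBs than in OCPs (log2 -1.25 ± 0.16, edgeR adjusted p = 8.06e-05) and 10.1-fold lower in S9-SCA-1+ than in S9-Pαhi cells (log2 -3.33 ± 0.21, edgeR adjusted p = 2.87e-08). Scube2 was near the limit of detection, with 1 read in the 3 S9-JAG1+ libraries and 0.982 to 1.47 CPM in CBs. Gpc3, a glypican that binds the ligand, was 1.37 log2 units lower in S9-SCA-1+ than in S9-Pαhi cells (-1.37 ± 0.12, edgeR adjusted p = 9.10e-07).

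A second ligand, Ihh, known from maturing cartilage, was called in CBs against OCPs (log2 1.56 ± 0.57, edgeR adjusted p = 0.0552), at 0.538 to 1.10 CPM against 0.0811 to 0.571, and the ranges overlapped. Smo, the transducer, kept a level of 290 to 409 CPM in every library. By comparison, 3 of 26 components were called in S9-JAG1+ against S9-Pαhi cells (1 higher, 2 lower; 6.98% of all genes), 3 in S9-SCA-1+ against S9-Pαhi cells (all lower; 10.47% of all genes) and 3 in OCPs against S9-JAG1+ cells (2 higher, 1 lower; 12.49% of all genes). In CBs against OCPs 3 were called (2 higher, 1 lower; 1 without CB replicate 3), beside 7.76% of all genes. In OCPs against S9-Pαhi cells, with 4.82% of all genes called, 0 were called by edgeR, with 2 at an unadjusted p under 0.05, and 0 by DESeq2. The medians of their log2 fold changes lay between -0.19 and 0.00 in the 5 comparisons, beside medians of all genes between -0.02 and 0.03.

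Genes known to respond to SHH in the limb bud were followed as a list of 18, all tested. Of these, 11 were called in S9-JAG1+ against S9-Pαhi cells, 8 higher and 3 lower, beside 6.98% of all genes, with a median log2 fold change of 0.90 beside 0.00 over all genes. Hoxa13, which patterns the digits, stood at 101 to 144 CPM in S9-JAG1+ and 3.31 to 4.84 in S9-Pαhi cells (log2 4.89 ± 0.19, edgeR adjusted p = 1.12e-09), and Hoxd13 at 799 to 1212 against 62.4 to 79.6 CPM (log2 3.79 ± 0.21, edgeR adjusted p = 2.74e-08). Hoxd12 was higher by log2 2.11 ± 0.19 (edgeR adjusted p = 3.20e-06). Tbx2, a T-box repressor of the limb bud margins, was an exception, lower in S9-JAG1+ cells at 44.4 to 53.9 against 191 to 311 CPM (log2 -2.36 ± 0.16, edgeR adjusted p = 1.96e-07). Hand2, which acts upstream of Shh, was close in both, at 353 to 430 and 288 to 346 CPM (log2 0.34 ± 0.13, edgeR adjusted p = 0.0671). Jag1 is on the list and is also the antigen of the sort, so its difference is no finding.

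The list was followed in the other comparisons too. The Shh RNA of a population does not measure how much of the spreading ligand its cells receive. In OCPs against S9-Pαhi cells 7 of 18 were called, all lower, beside 4.82% of all genes, with a median log2 fold change of -0.95. In OCPs against S9-JAG1+ cells 11 were called, 10 of them lower, beside 12.49% of all genes. In S9-SCA-1+ against S9-Pαhi cells 12 were called, all lower, beside 10.47% of all genes, with Hand2 at log2 -3.95 ± 0.17 (edgeR adjusted p = 8.88e-10). The limb mesenchyme genes Tbx5, Pdgfra, Prrx1 and Twist1 were lower there too (log2 -3.90, -3.69, -2.81 and -2.32). Whether the list differed beyond them was not tested. CBs against OCPs is also a comparison of stages, and Shh was at the limit of detection in both. There 8 of 18 were called, all higher in CBs, beside 7.76% of all genes. The median log2 fold change of the list was 0.81 beside -0.02 over all genes. Hoxa13 rose there by log2 4.87 ± 0.21 (edgeR adjusted p = 1.88e-08), from 1.05 to 1.45 CPM in OCPs to 27.6 to 39.3 in CBs, and Hoxd13 by log2 3.57 ± 0.21 (edgeR adjusted p = 1.70e-07). Gli1 did not pass in the same comparison (log2 0.21 ± 0.20, edgeR adjusted p = 0.464).

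A list of 8 genes of the anterior limb bud, where SHH is absent, was followed in the same way. In S9-JAG1+ against S9-Pαhi cells 6 were called, 5 of them lower, beside 6.98% of all genes, with a median log2 fold change of -2.24 (2 called without S9-JAG1+ replicate 3). Alx4, which restricts Shh to the posterior margin, stood at 24.6 to 50.3 CPM in S9-JAG1+ and 218 to 235 in S9-Pαhi cells (log2 -2.65 ± 0.26, edgeR adjusted p = 9.06e-06). In S9-SCA-1+ against S9-Pαhi cells 8 of 8 were called lower, beside 10.47% of all genes, among them Pax1 at 0.595 to 0.855 against 42.4 to 112 CPM. The limb mesenchyme genes were lower in that comparison as well. In OCPs against S9-Pαhi cells 3 were called, all lower, beside 4.82% of all genes (5 without CB replicate 3, which enters through the shared spread). OCPs against S9-JAG1+ cells gave 4, 3 of them higher, beside 12.49% of all genes, including Irx5 at 76.2 to 103 against 4.36 to 10.7 CPM. CBs against OCPs gave 4, 2 higher and 2 lower, beside 7.76% of all genes, with a median of -0.67. Among them Pax9 was higher by log2 6.34 ± 0.37 (edgeR adjusted p = 1.51e-07) and Irx5 lower (log2 -2.17 ± 0.65, edgeR adjusted p = 0.0322). Irx5 stood at 33.7, 22.3 and 2.20 CPM in CB replicates 1, 2 and 3, so the size of its difference leans on replicate 3. The S9-Pαhi libraries held Shh at 13.7 to 19.0 CPM together with the highest Alx4 levels, and whether both came from the same cells cannot be told from sorted pools.

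**Figure D4:**
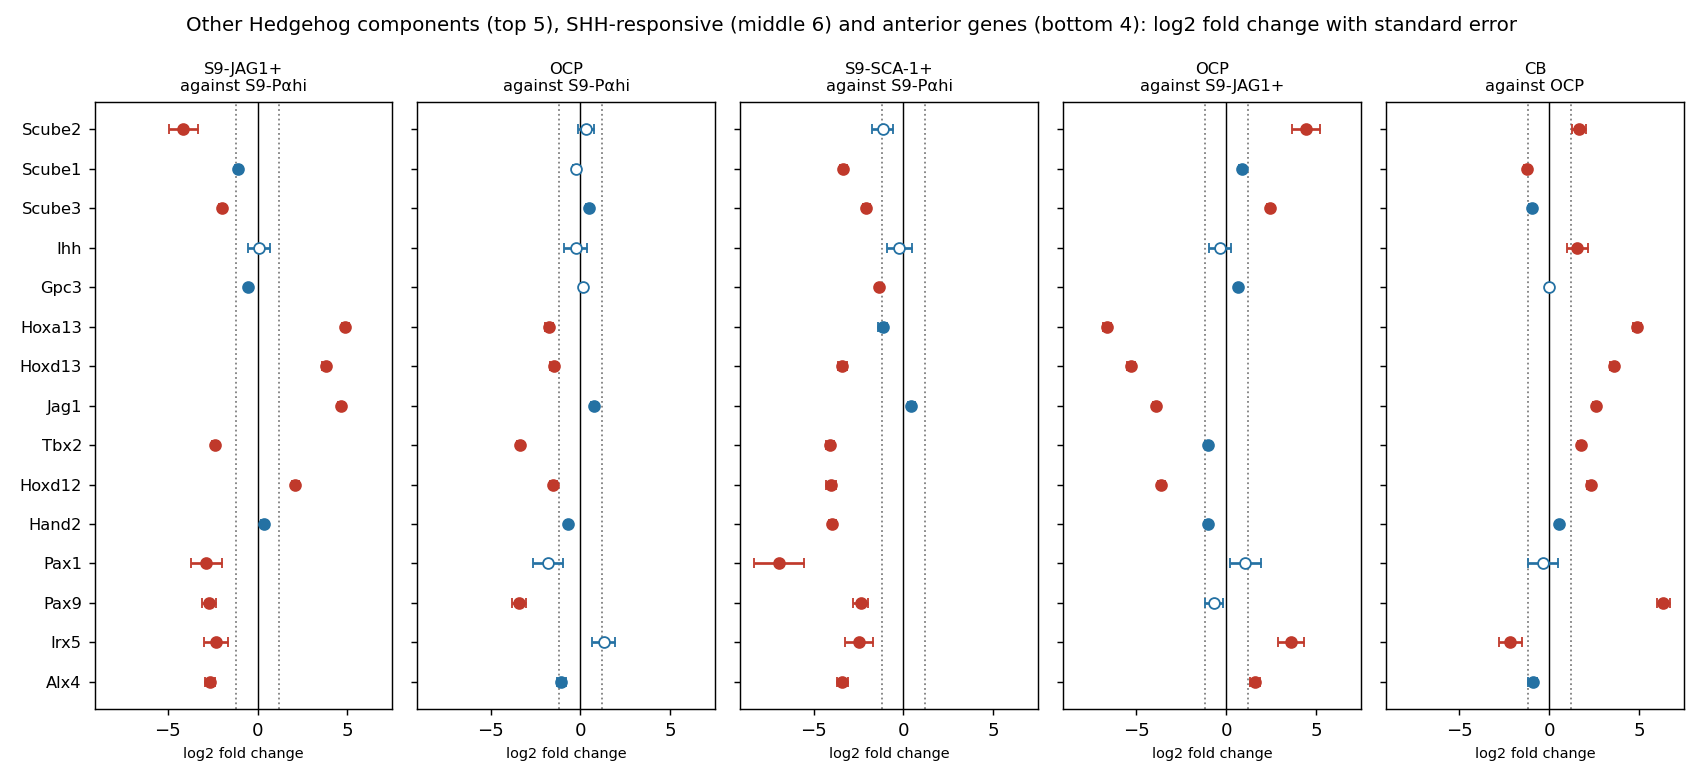
Fitted log2 fold change (horizontal axis) with its standard error for named genes of the 3 lists (rows, from the top: 5 other pathway components, 6 SHH-responsive genes, 4 anterior genes) in 5 comparisons (panels), with the marks of the plot of members. Hoxa13 lies at 4.89 in S9-JAG1+ against S9-Pαhi cells and at 4.87 in CBs against OCPs.

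Genes whose pattern over the 14 libraries was most like that of each member were sought among 11850 other genes. They were ranked by the mean absolute difference of log2 CPM. For each gene, the mean of its population means was first subtracted from every library, so differences between populations were kept. Nearest to Shh were Tfap2c, at 0.83 log2 units, and Evx1, at 1.42. Nearest to Ptch1 were Frmd4b (0.12) and Tle4 (0.14), to Hhip Rassf4 (0.38) and Celf2 (0.41), and to Gli1 Camkv (0.15) and Pde5a (0.19). The co-receptors were nearest to Dact1 (0.23) and Sorl1 (0.26) for Cdon, Ltbp4 (0.14) and Abca3 (0.14) for Boc, and Rab3il1 (0.14) and Hmga2 (0.14) for Gas1. Gli2 was nearest to Phka1 (0.12) and Emid1 (0.14), and Gli3 to Capn10 (0.08) and Ctbp2 (0.08). The members' levels span very different ranges, so these distances are not comparable between members.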

How the data were processed

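The authors sequenced poly(A)+ RNA of sorted forelimb bud cells as single reads, aligned them to mm10 with STAR, keeping 1 hit per multi-mapped read, and counted reads that start in RefSeq exons with QuasR. They deposited raw counts per gene with a gene length in bases, whose definition is not given in the sources used here. Of 24454 Entrez identifiers, 24374 were matched to symbols; the other 80 held 0.358% of the counts. Totals ran from 20316583 to 29162751 counts. With edgeR 4.0.16 (R 4.3.3), genes were filtered by population (15125 kept), scaled by TMM (factors 0.957 to 1.06) and fitted in 1 quasi-likelihood model of 14 libraries with a mean per population; contrasts were adjusted over all genes. DESeq2 1.42.0 was an alternative. The fits were tested on simulated counts. RPKM uses the deposited length. Replicates of a population differed by far more than sampling noise (chi-square per degree of freedom 7.8 to 76.3). Of each list, up to 6 called genes with the largest fold changes are named; some of these are not reported here. The members, lists and comparisons were chosen with earlier results of these data known. Standard errors and p-values come from the fit and include the spread between these pooled samples. Each SD is the spread between the libraries of a population. Detection limits cover counting error only.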

Additional observations from a re-analysis of the deposited data

How the results depend on the processing

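Over 45 member fold changes and 980 alternative values of them, 966 kept direction and call, 12 passed the limit where the reported value did not, and 2 changed sign. Shh in CBs against OCPs was 0.2928 without CB replicate 2 (-0.5736 to 0.2928 over all alternatives). Gli1 in OCPs against S9-Pαhi cells was -0.1285 without OCP replicate 2 (-0.1285 to 0.3028 over all alternatives). DESeq2's test, other scalings and filters, and an adjusted p of 0.05 kept the counts of members and of list genes called within 1.5 times. Leaving out both S9-SCA-1+ libraries, an alternative chosen after seeing the data, did so as well.

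The fold limit mattered most. With no limit, 28.07% of all genes passed in S9-JAG1+ against S9-Pαhi cells, 20.08% in OCPs against S9-Pαhi and 30.39% in S9-SCA-1+ against S9-Pαhi. The shares were 47.6% in OCPs against S9-JAG1+ and 34.78% in CBs against OCPs. The members passing were 7 in S9-JAG1+ against S9-Pαhi cells and 8 in S9-SCA-1+ against S9-Pαhi cells. They were 8 in OCPs against S9-JAG1+ cells and 6 in CBs against OCPs. A limit of 1.0 gave 5 in S9-JAG1+ against S9-Pαhi cells, with the share of all genes not determined. With no limit, 10 of the 26 other pathway components passed in S9-JAG1+ against S9-Pαhi, 1 in OCPs against S9-Pαhi and 12 in S9-SCA-1+ against S9-Pαhi. In OCPs against S9-JAG1+ 13 passed and in CBs against OCPs 5, to be read beside the shares above. Of the 18 SHH-responsive genes, 15 passed in OCPs against S9-Pαhi and 16 in CBs against OCPs. Leaving out each library in turn gave 2 to 5 members in S9-JAG1+ against S9-Pαhi cells, 1 to 3 components in CBs against OCPs, and for the anterior genes 2 to 6 in S9-JAG1+ and 3 to 5 in OCPs, both against S9-Pαhi cells. A fit of only OCPs and S9-Pαhi cells gave 5 anterior genes.

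The log2 balance depended on its construction. In the order S9-JAG1+, S9-Pαhi, OCP, CB and S9-SCA-1+ it was 3.311, 5.433, 5.228, 4.552 and 5.556 with the longest transcript as length, -1.384, 1.369, 1.996, 1.475 and 1.937 without Gas1, and 8.946, 9.492, 7.012, 7.679 and 7.559 without Ptch1. The Gli1 share was 23.27% in CBs and 18.11% in S9-SCA-1+ cells with the longest transcript. That transcript is taken from GENCODE. For Gas1 it has 1155 bases against 3131 deposited, which raises the Gas1 RPKM in that version of the balance.

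Replicate numbers were not used as pairs in the reported fit. Deviations of 26 same-numbered pairs correlated at a mean of 0.014 (-0.181 to 0.308), and 7 of 14 libraries were closer to their own number than to others. These pairs include CBs, which came from another stage, and each population has few libraries. The check therefore cannot tell whether same-numbered samples of 1 stage shared a pool of limb buds. A replicate block left the members called at 2, 2, 2, 5 and 0 in the 5 comparisons and changed no other count by over 1.5 times. Levels under 0.101 to 0.149 CPM, 3 counts, limit what can be said of Shh in OCPs and CBs.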
